A study of Mus musculus with 30 samples.

Results

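The genes described here encode proteins of the mitochondrial ribosome. They were taken as every row of the deposited gene count table whose symbol is Mrpl or Mrps followed by a number and at most 1 letter, with at least 100 counts summed over the 30 libraries. This gave 76 genes of the 30538 rows, 47 with an Mrpl symbol (large subunit) and 29 with an Mrps symbol (small subunit). A further gene, Mrpl53, has a fitting symbol but held 6 counts in all and was left out. In the GENCODE annotation 88.0% of its exonic bases are shared with Ccdc142 on the same strand. All 76 genes passed the filter on low counts, so every count below is out of 76 unless another number is given.

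Mitochondria carry their own ribosome, which makes the core proteins of the respiratory chain that the mitochondrial genome still encodes. Its RNAs are transcribed inside the organelle, while its proteins are encoded in the nucleus, made in the cytosol and imported. Some of these proteins descend from bacterial ribosomal proteins and others were added in the mitochondrial lineage. Macrophages that meet lipopolysaccharide (LPS), a component of the bacterial outer membrane, are known to turn from respiration towards glycolysis.

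The libraries came from cultured bone marrow derived macrophages of C57BL/6 wild-type mice and of Ch25h-/- mice, 3 mice of each genotype. The age and sex of the mice are not given in the sources used here. Ch25h makes 25-hydroxycholesterol (25HC), which binds the oxysterol binding protein OSBP, and the series compares inhibitors of that protein. Wild-type cells were untreated or pretreated for 18 h with 25HC at 5 µM, itraconazole (an azole antifungal) at 1 µM or OSW-1 (a plant saponin) at 0.3 µM. Cells of these 4 groups were collected either without stimulation or once LPS (10 ng/mL) had been present for 18 h. Ch25h-/- cells were not given any compound and were collected unstimulated or after the same LPS stimulus. This makes 10 groups of 3 libraries, called by mouse number below. The libraries of 1 mouse were treated as independent in the tests. Unstimulated cells have a stimulation time of 0 in the labels, so the hours of culture cannot be told apart from LPS. No vehicle is named for the untreated cells, and whether the compounds stayed on during LPS is not stated.

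Libraries held 23656860 to 43922154 counts. Ch25h was at 0.973 to 2.34 CPM (counts scaled to a common library size, with TMM factors) in untreated wild-type cells with or without LPS and at 0 to 0.277 CPM in Ch25h-/- cells. In unstimulated wild-type cells it was at 4.46 to 13.3 CPM with 25HC, 4.84 to 21.4 with itraconazole and 9.92 to 29.1 with OSW-1. With LPS these ranges were 1.98 to 3.86, 2.63 to 7.58 and 0.599 to 1.82 CPM. Macrophage markers, led by Lyz2 (lysozyme), summed to 7899 to 10097 CPM with OSW-1 plus LPS, against 18990 to 29563 with LPS alone and at least 14819 in every library of the other groups. Markers of neutrophils, B cells, T or NK cells, red cells and mast cells stayed at or below 11.8 CPM in sum. Dendritic cell markers reached 58.9 CPM in OSW-1 with LPS, mouse 3, of which Ccr7, also made by activated macrophages, was 56.9, and fibroblast markers reached 24.7 CPM, mostly Pdgfrb. The part of these markers in the results was not tested. In 20 libraries every count is even, while the 3 libraries of OSW-1 with LPS and the 6 Ch25h-/- libraries mix odd and even counts and 1 library of 25HC at rest is 46.1% odd. For OSW-1 with LPS against LPS alone, and for LPS in OSW-1-pretreated cells, this difference in the tables cannot be told apart from the treatment. The same holds where LPS responses with and without OSW-1 are compared, and for levels summed over members with OSW-1 plus LPS. For Ch25h-/- against wild-type cells, with or without LPS, the odd and even counts cannot be told apart from the genotype. In bulk samples fewer cells of a type and less RNA per cell cannot be told apart.

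The stretch of DNA just before the start of a gene is where its transcription is set, and RefSeq held such windows for 67 of the members. The 100 bases before the start (GRCm38.p6, written along the gene's own strand, 5′ to 3′) are shown for the genes that fell most with OSW-1 plus LPS, Mrpl42 and Mrpl28, and for the genes that rose most with LPS in wild-type cells, Mrpl52 and Mrpl45. Capitals mark a CCAAT box (CCAAT, or ATTGG on the other strand) or an ETS motif (CCGGAAG, or CTTCCGG on the other strand), and the coordinates are chr10:95501950-95502049 (minus strand) for Mrpl42, chr17:26123403-26123502 (plus strand) for Mrpl28, chr14:54426809-54426908 (plus strand) for Mrpl52 and chr11:97315616-97315715 (plus strand) for Mrpl45.
Mrpl42: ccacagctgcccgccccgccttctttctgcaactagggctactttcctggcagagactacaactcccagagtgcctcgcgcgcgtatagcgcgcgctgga
Mrpl28: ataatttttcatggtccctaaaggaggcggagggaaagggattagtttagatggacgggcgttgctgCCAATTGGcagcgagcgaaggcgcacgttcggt
Mrpl52: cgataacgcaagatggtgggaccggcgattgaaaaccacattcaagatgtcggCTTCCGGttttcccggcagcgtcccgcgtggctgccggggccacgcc
Mrpl45: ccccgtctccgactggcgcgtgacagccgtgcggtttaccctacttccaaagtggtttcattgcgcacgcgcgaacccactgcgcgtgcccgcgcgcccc
Of the motifs searched on both strands (7 in all), Mrpl42 and Mrpl45 held none in these bases. In Mrpl28 the CCAAT letters of both strands overlap. The last 3 bases of the Mrpl28 window lie in an exon of the GENCODE model.

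Over windows of 300 bases, from 250 before to 50 after each start, 73 windows of the 67 members were searched for the same motifs. The ETS letters were present in 32.9% of member windows, in 17.1% of the windows of all tested genes and in 8.86% of all windows. The letters AAGATGGCG, bound by YY1, were present in 11%, 2.88% and 1.4%. The palindromic motif of NRF1, a factor named for its role at genes of the respiratory chain, was present in 4.1%, 2.05% and 0.97%. The CCAAT letters were about as frequent in members (39.7%) as in all windows (37.4%), and so was the E-box CACGTG (9.6% against 7.15%, and 9.75% in tested genes). The letters TGACGTCA (CRE) were present in 2.7% of member windows, 3.07% of windows of tested genes and 1.79% of all windows, and TGATGCAA (the ATF4 site) in 0%, 0.65% and 0.89%. A match of letters is a description and does not show that a factor binds.

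In unstimulated, untreated wild-type cells members ranged from 2.51 to 66.7 CPM with a median of 25.2. Per kilobase of exon, 75 members with a known length ran from 0.514 CPM per kb (Mrpl23) to 48.3 (Mrpl28), with a median of 10.2. The length joins every annotated exon of a gene, 4883 bases for Mrpl23 and 1380 for Mrpl28. It is not the length of 1 mRNA, so the scale depends on the annotation. On this scale subunits of one particle differed widely, and what the lengths add to the range was not tested. Mrpl28 lies on chromosome 17 (chr17:26123500-26126613, plus strand) and Mrpl23 has a bacterial counterpart at the exit of the peptide tunnel.

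Members differed widely in how far their levels ranged across the 10 groups. The ratio of the highest to the lowest group mean had a median of 1.65. It was over 2 for 21 members, under 1.5 for 26 and between these values for 29. The narrowest was Mrpl44, a protein with a ribonuclease fold near the tunnel exit, with a ratio of 1.11. The widest were Mrps18b, with 8.72, Mrpl52 with 7.18, Mrps28 with 5.94, Mrpl38 with 4.08 and Mrpl47 with 3.92. The plot of fold changes shows this spread in each comparison.

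**Figure D1:**
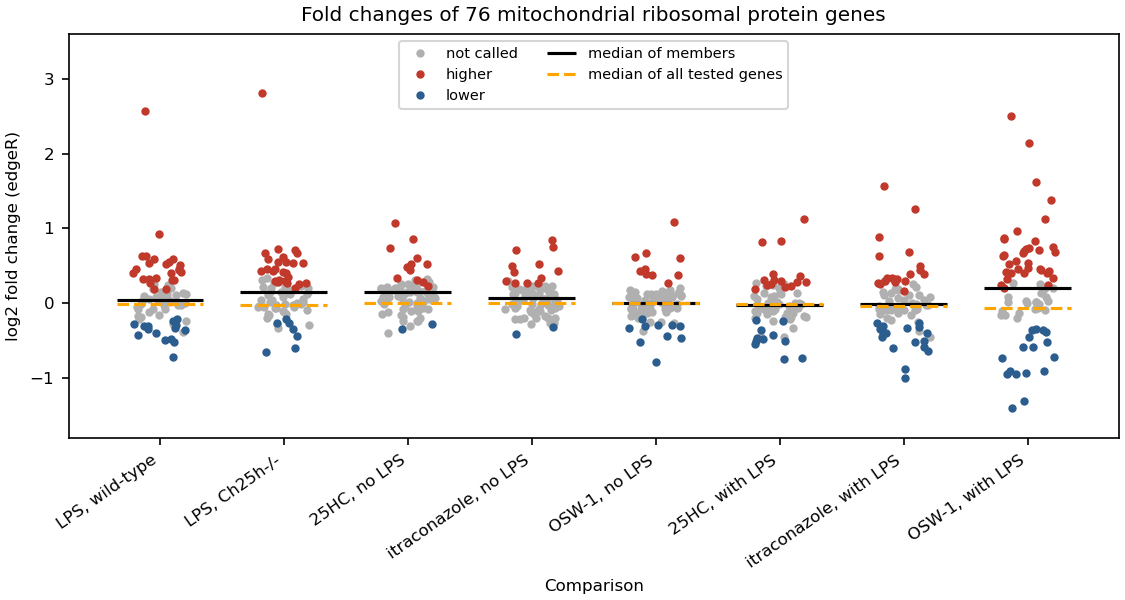
Each point is 1 of the 76 genes, placed by its log2 fold change (vertical axis) in 8 comparisons (horizontal axis), red for higher and blue for lower at an adjusted p under 0.05 and grey for not called. Black bars are the members' medians and dashed orange bars the medians of all 13173 tested genes; for OSW-1 with LPS these are 0.20 and -0.06, and the widest points are Mrps18b at 2.50 and Mrpl42 at -1.40.

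LPS changed members in both directions in untreated wild-type cells. At an adjusted p under 0.05 over all 13173 tested genes, 24 members were higher and 15 lower with LPS, where 30.8% of all tested genes were higher and 30.1% lower (60.9% in either direction). The median log2 fold change was 0.05 for members and -0.01 for all tested genes. In Ch25h-/- cells 26 members were higher and 7 lower with LPS, against 28% and 29.2% of all tested genes (57.2% in either direction), with medians of 0.15 and -0.02. The 2 groups of libraries did not overlap for 35 members in wild-type cells (61.8% of all tested genes) and for 38 in Ch25h-/- cells (65.2%). Scaled by library totals in place of TMM, the split was 4 higher and 38 lower in wild-type and 7 higher and 27 lower in Ch25h-/- cells. Of the 13173 tested genes 2277 were then higher and 6533 lower in wild-type and 2249 and 5836 in Ch25h-/- cells. That scaling moved the median of all tested genes to -0.35 and -0.29, and the members' medians to -0.29 and -0.12, so the direction of small LPS changes depends on it. Without wild-type LPS mouse 2 the count of lower members was 8. In Ch25h-/- cells 17 were higher without unstimulated mouse 1, and 4 were lower without unstimulated mouse 2 or without LPS mouse 1.

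Mrpl52, a large subunit protein without a bacterial counterpart, rose the most with LPS. Untreated wild-type libraries had 10.4, 13.1 and 12.4 CPM unstimulated and 65.6, 56.6 and 90.1 CPM with LPS, and Ch25h-/- libraries 9.99, 10.8 and 11.9 against 68.4, 80.5 and 79.6 CPM. In both genotypes every LPS library was far above every unstimulated one. The log2 fold changes of Mrpl52 were 2.56 ± 0.18 (adjusted p = 5.64e-12) and 2.80 ± 0.18 (adjusted p = 1.85e-12). Here and below the standard error (SE) of a fold change comes from the fit over all 30 libraries. That fit shares its estimate of spread over all 10 groups, so the SE is not the spread of the 3 mice compared. LPS also raised Mrpl52 in cells pretreated with 25HC (2.10 ± 0.17), itraconazole (1.71 ± 0.17) and OSW-1 (1.5 ± 0.17).

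Mrpl45, which holds the ribosome to the inner membrane at the exit of the peptide tunnel, was the member with the next largest rise in wild-type cells. Its libraries had 49.8, 43.7 and 44.4 CPM unstimulated and 109, 80.7 and 71.2 CPM with LPS, without overlap, and the log2 fold change was 0.92 ± 0.11 (adjusted p = 4.57e-08). In Ch25h-/- cells it rose by 0.62 ± 0.11. Mrpl30 and Mrpl14, both with bacterial counterparts, rose by 0.63 ± 0.10 and 0.63 ± 0.15. Mrpl14 went from 26.7, 24.6 and 26.9 to 51.4, 39.9 and 29.3 CPM, so the LPS libraries lay above the others but spread widely. Scaled by library totals Mrpl14 was at 0.27 with an adjusted p of 0.0676.

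The 3 members that fell most with LPS in wild-type cells, Mrps26, Mrps6 and Mrps25, have small subunit symbols. Mrps26 libraries had 23.8, 22.3 and 22.5 CPM unstimulated and 11.1, 12.8 and 17.9 CPM with LPS, with no overlap, a log2 fold change of -0.71 ± 0.15 (adjusted p = 0.000199). Mrps25 fell by 0.49 ± 0.12 and Mrpl33 by 0.48 ± 0.14, and Mrps6 was at -0.52 ± 0.20. The Mrps6 call rests on single libraries: without unstimulated mouse 1 it was at -0.28 (adjusted p = 0.257), and without LPS mouse 2 at -0.35 (adjusted p = 0.167). Mrps25 shares 69.8% of its exonic bases with Nr2c2 on the opposite strand, and the strand setting of the counting is not stated, so its counts are uncertain. Mrps6 shares 10.4% of its exonic bases with Slc5a3 on the same strand, and Slc5a3 was at -1.0 ± 0.30 with LPS in wild-type cells. What Slc5a3 adds to the counts of Mrps6 was not tested. In Ch25h-/- cells the largest falls were those of Mrps6 (-0.64 ± 0.20), Mrpl9 (-0.59 ± 0.09), Mrpl48 (-0.43 ± 0.10) and Mrpl33 (-0.34 ± 0.14), and the largest rises after Mrpl52 those of Mrpl17 (0.73 ± 0.10), Mrps28 (0.71 ± 0.19) and Mrps10 (0.67 ± 0.12). Scaled by library totals the Mrps28 call was lost (0.44, adjusted p = 0.0739). The Mrpl33 call was lost in Ch25h-/- cells (adjusted p of 0.08 to 0.121) without unstimulated mouse 2 or 3, or LPS mouse 1 or 3.

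In unstimulated cells the share of members called higher with a compound was near that of all tested genes (25HC and itraconazole) or below it (OSW-1). With 25HC 12 were higher and 2 lower, where 15.9% of all tested genes were higher and 12.8% lower. With itraconazole 12 were higher and 2 lower, against 14.4% and 12.4%, and with OSW-1 10 were higher and 10 lower, against 20.1% and 17.2%. The members' medians were 0.15, 0.07 and 0.00, and those of all tested genes 0.01, 0.00 and 0.00. Groups did not overlap for 38, 32 and 30 members, where the shares of all tested genes were 46.7%, 49.2% and 53.6%. The compounds were used at different concentrations and share their untreated controls, so their values stand side by side without a comparison. With DESeq2 size factors the split for 25HC was 12 and 4, and with mice as a block 15 and 4. By library totals it was 12 and 2 for OSW-1, where 3076 of all tested genes were higher and 1776 lower.

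Some of these counts changed when single libraries were left out. Whichever library of either group was dropped, itraconazole gave 7 to 10 higher members, below the 12 with all libraries. OSW-1 gave 3 to 7 lower members, below the 10 with all libraries. The 25HC count of lower members was 1 without untreated mouse 1 or 3 or 25HC mouse 2, 0 without 25HC mouse 1 and 4 without 25HC mouse 3. For itraconazole 7 were higher without itraconazole mouse 2 and 1 was lower without untreated mouse 3. For OSW-1 the lower count was 4, 5 and 5 without untreated mouse 1, 2 or 3, and 3 without OSW-1 mouse 1 or mouse 2.

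Values of single members at rest are given for each compound against the same untreated libraries. Mrpl52 was at 0.60 ± 0.17 with 25HC, 0.71 ± 0.17 with itraconazole and 0.68 ± 0.17 with OSW-1. The 25HC call for Mrpl52 was lost without untreated mouse 1 (0.51, adjusted p = 0.0599) or 25HC mouse 1 (0.52, adjusted p = 0.0641). Mrps10, with 0.48 ± 0.12, 0.52 ± 0.12 and 0.44 ± 0.12, and Mrps2, with 0.44 ± 0.09, 0.41 ± 0.09 and 0.39 ± 0.09, are small subunit proteins with bacterial counterparts. Mrpl17, at the tunnel exit, was at 0.52, 0.44 and 0.46. Mrpl9 was lower with 25HC (-0.28 ± 0.09) and itraconazole (-0.32 ± 0.09) and not called with OSW-1 (-0.06 ± 0.09). The Mrpl9 call with 25HC was lost without untreated mouse 1 or 3 or 25HC mouse 1 or 2 (adjusted p of 0.0511 to 0.124), and that with itraconazole without untreated mouse 3 (adjusted p = 0.0673).

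Of the members lowered by OSW-1 at rest, Mrps6 was at -0.52 ± 0.20, Mrps36 at -0.46 ± 0.14 and Mrpl34 at -0.43 ± 0.15. Slc5a3, which shares exonic bases with Mrps6, was at -0.89 ± 0.30 there, and what it adds was not tested. Mrps36 carries a ribosomal name, but its protein is known as a part of the oxoglutarate dehydrogenase complex. These calls were weak. Mrps6 lost its call without untreated mouse 1 (-0.28, adjusted p = 0.315) and without OSW-1 mouse 2 or 3, Mrps36 without OSW-1 mouse 1 or 2 (adjusted p of 0.0553 and 0.0542), and Mrpl34 without untreated mouse 1 or 3 or OSW-1 mouse 1 (adjusted p of 0.0686, 0.074 and 0.143).

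With LPS present, members were called in both directions with each compound. With 25HC or itraconazole the share of members called higher lay near that of all tested genes, and the share called lower lay below it. With OSW-1 the higher share lay above and the lower share below. With 25HC 15 were higher and 11 lower than with LPS alone, where 20.8% of all tested genes were higher and 21% lower (41.8% in either direction). With itraconazole 19 were higher and 17 lower, against 26.5% and 27.9% (54.4% in either direction). With OSW-1 35 were higher and 17 lower, against 34.3% and 37.1% (71.4% in either direction). Members' medians were -0.03, -0.01 and 0.20, and those of all tested genes -0.01, -0.03 and -0.06. Groups did not overlap for 26, 30 and 53 members, where 43%, 50.4% and 70.4% of all tested genes did not. Scaled by library totals the splits were 17 and 8 for 25HC, 29 and 8 for itraconazole, and 48 and 11 for OSW-1. Of all tested genes 2954 were then higher and 2426 lower with 25HC, 4133 and 2986 with itraconazole, and 5700 and 3820 with OSW-1. That scaling put the median for OSW-1 at 0.46 for members and 0.19 for all tested genes. The count of higher members with 25HC was 8 without LPS mouse 2 and 6 without 25HC plus LPS mouse 2, and that of lower members with itraconazole 10 without itraconazole plus LPS mouse 1.

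**Figure D2:**
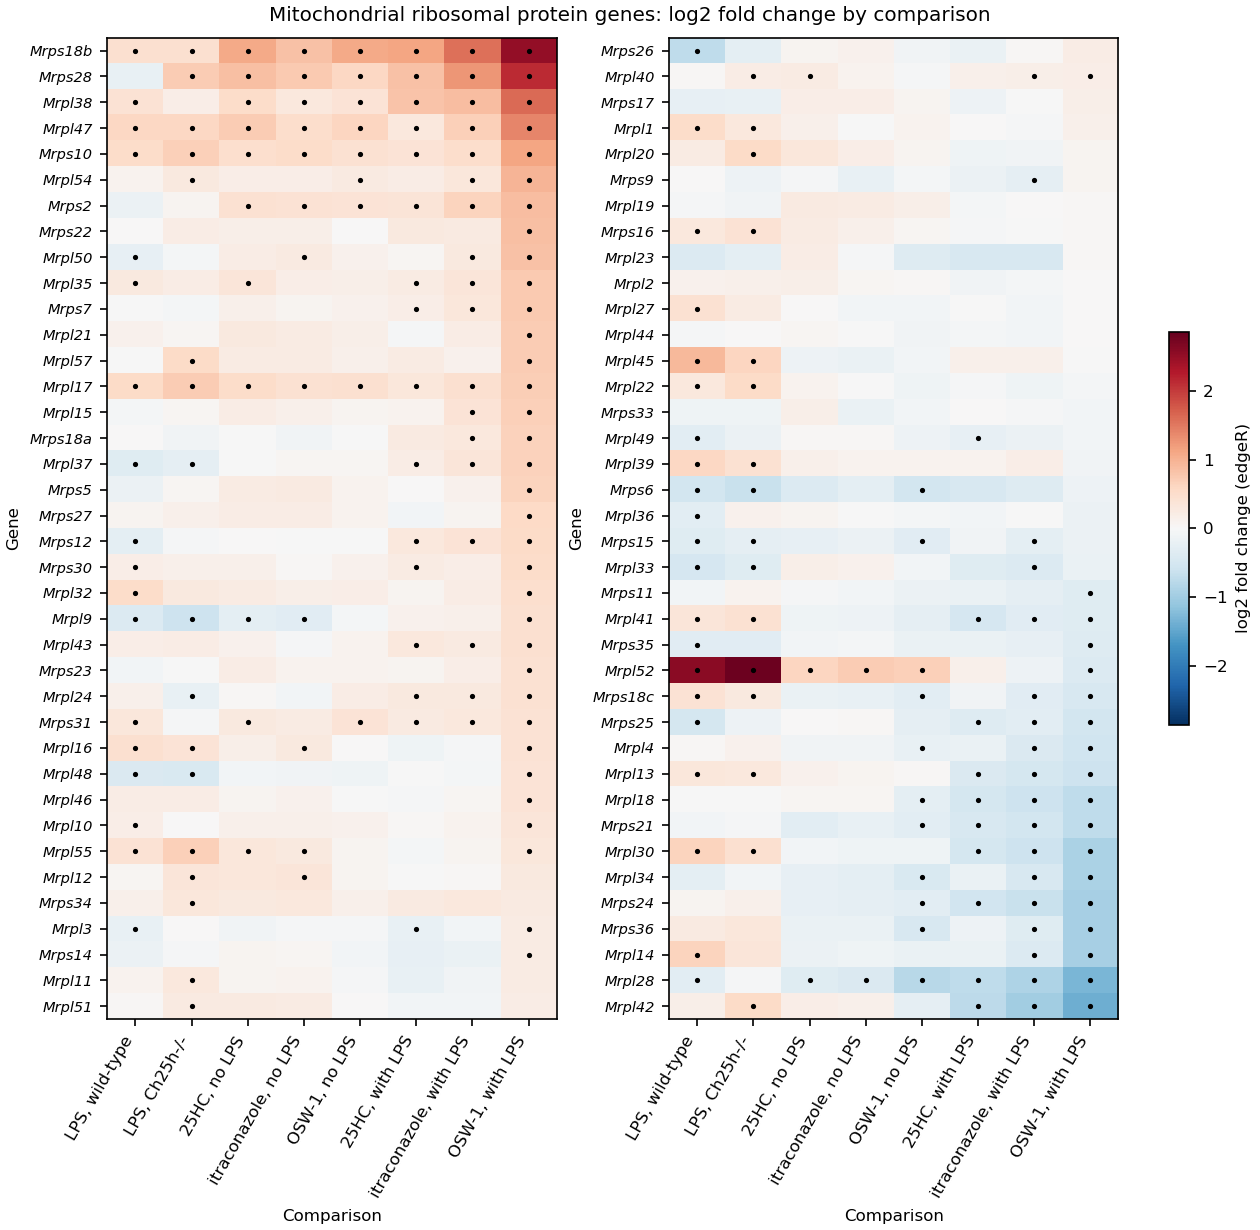
Log2 fold change (colour scale) of all 76 genes (rows, ordered by OSW-1 with LPS, from high at the top left to low at the bottom right) in 8 comparisons (columns), with a dot where the adjusted p was under 0.05. Mrps18b and Mrps28 head the order with 2.50 and 2.14, Mrpl28 and Mrpl42 close it with -1.31 and -1.40, and Mrpl52 stands out in the LPS columns.

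The comparisons at rest and with LPS share no library, so their calls can be overlapped. Of the members higher with 25HC, 9 were higher in both states, 75% of the 12 at rest and 60% of the 15 with LPS, where the same shares over all tested genes were 56.2% and 43%. For itraconazole it was 8, 66.7% of 12 and 42.1% of 19 (65.4% and 35.6% over all tested genes). For OSW-1 it was 9, 90.0% of 10 and 25.7% of 35 (72% and 42.1%). Of the members lower with OSW-1, 8 were lower in both states, 80.0% of 10 and 47.1% of 17 (77.3% and 35.9%). These counts are small and the overlap was not tested against that of other genes. Mrpl52 alone was called in opposite directions, higher with OSW-1 at rest and lower with OSW-1 plus LPS (-0.38 ± 0.17, adjusted p = 0.0417).

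Mrps18b had the largest rise with OSW-1 plus LPS. Its protein is 1 of several relatives of a bacterial small subunit protein, next to Mrps18a and Mrps18c, and its gene lies on the minus strand at chr17:35910379-35916389. Unstimulated wild-type libraries had 8.46, 8.96 and 8.30 CPM untreated, 19.4, 20 and 14.8 with 25HC, 16.6, 15 and 14.5 with itraconazole and 20.6, 17.2 and 16.7 with OSW-1. With LPS they had 11.1, 13.8 and 10.6 CPM without a compound, 20.8, 31.0 and 26.0 with 25HC, 38.1, 34.7 and 32.3 with itraconazole, and 69.8, 67.8 and 63.1 with OSW-1. Every compound library lay above every control library of its state, and the OSW-1 plus LPS libraries lay above all others. The log2 fold changes at rest were 1.08 ± 0.13, 0.84 ± 0.13 and 1.08 ± 0.13, and with LPS 1.13 ± 0.13, 1.57 ± 0.13 and 2.50 ± 0.13 (adjusted p = 3.57e-14). Of its relatives, with OSW-1 plus LPS, Mrps18a was higher (0.67 ± 0.10) and Mrps18c lower (-0.45 ± 0.11).

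Mrps28, a small subunit protein with a bacterial counterpart, had a similar order. Unstimulated libraries had 8.41, 8.18 and 5.76 CPM untreated and between 10.4 and 15.3 CPM with any compound. With LPS they had 4.98, 6.12 and 8.21 CPM without a compound, 8.67, 13.8 and 12 with 25HC, 15.1, 13.8 and 17.3 with itraconazole and 28.9, 27.8 and 28.2 with OSW-1. No compound library reached down to its controls. The log2 fold changes with LPS were 0.84 ± 0.18, 1.26 ± 0.18 and 2.14 ± 0.18 (adjusted p = 1.34e-10). At rest they were 0.86 ± 0.18, 0.76 ± 0.18 and 0.60 ± 0.18, and the call with OSW-1 was lost without untreated mouse 3 (0.45, adjusted p = 0.0772). LPS without a compound raised Mrps28 in Ch25h-/- cells (4, 5.75 and 4.53 against 7.25, 8.74 and 7.5 CPM) and gave -0.22 ± 0.18 in wild-type cells. The difference between these 2 responses, 0.93 ± 0.26, was not called (adjusted p = 0.289).

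Mrpl38, of the central protuberance, and Mrpl47, at the tunnel exit, were the large subunit members that rose most with OSW-1 plus LPS. Mrpl38 libraries had 32.0, 28.4 and 26.3 CPM with LPS alone, 45.6, 51.9 and 54.9 with 25HC, 59.6, 56.8 and 43.8 with itraconazole and 99.0, 86.7 and 80.3 with OSW-1. Over LPS alone these were log2 fold changes of 0.82 ± 0.11, 0.89 ± 0.11 and 1.62 ± 0.11. Mrpl47 libraries had 12.9, 13.4 and 13.9 CPM with LPS alone, 13.5, 17.2 and 18.8 with 25HC, 21.9, 22.7 and 20 with itraconazole and 39.6, 34.3 and 30.9 with OSW-1. For Mrpl38 no compound library overlapped the LPS controls, and for Mrpl47 only 1 library with 25HC did. The Mrpl47 fold changes were 0.30 ± 0.11, 0.68 ± 0.11 and 1.38 ± 0.11. Mrpl47 shares 10.2% of its exonic bases with Actl6a and 13.9% with Ndufb5, both on the opposite strand, and with OSW-1 plus LPS Actl6a was at 0.97 ± 0.11 and Ndufb5 at -0.92 ± 0.12. What they add to its counts was not tested.

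Mrpl42, a large subunit protein without a bacterial counterpart, had the largest fall with OSW-1 plus LPS. Unstimulated libraries had 28.0, 28.7 and 26.6 CPM untreated, and between 21.0 and 32.2 CPM with a compound, and no fold change at rest was called. With LPS they had 31.8, 27.5 and 34.2 CPM without a compound, 15.2, 18.6 and 22.3 with 25HC, 12.4, 14.3 and 20.2 with itraconazole and 10.6, 12 and 12.8 with OSW-1. Every compound library with LPS lay below every library with LPS alone. The log2 fold changes were -0.74 ± 0.14, -1.0 ± 0.14 and -1.40 ± 0.14 (adjusted p = 2.71e-09).

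Mrpl28, with a bacterial counterpart, was lower with every compound in both states. Unstimulated libraries had 67.6, 65.2 and 67.3 CPM untreated, 50.9, 53.8 and 53.0 with 25HC, 51.6, 49.9 and 49.1 with itraconazole and 36.5, 39.0 and 40.5 with OSW-1. With LPS they had 57.8, 44.4 and 60.4 CPM without a compound, 32.3, 29.1 and 36.5 with 25HC, 26.1, 28.3 and 34.1 with itraconazole and 19.8, 21.7 and 23.9 with OSW-1. The compound libraries lay below their controls without overlap in all 6 cases. The log2 fold changes at rest were -0.34 ± 0.10, -0.41 ± 0.10 and -0.79 ± 0.10, and with LPS -0.73 ± 0.10, -0.88 ± 0.10 and -1.31 ± 0.11 (adjusted p = 5e-11). The 25HC call at rest was lost without 25HC mouse 1 (-0.32, adjusted p = 0.0579). Among the other members that fell with OSW-1 plus LPS, Mrpl14 was at -0.94 ± 0.15 and Mrps36 at -0.94 ± 0.15. Mrps24, of the small subunit, was at -0.54 ± 0.12 with 25HC and -0.64 ± 0.12 with itraconazole, and Mrpl30 at -0.59 ± 0.10 with itraconazole.

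**Figure D3:**
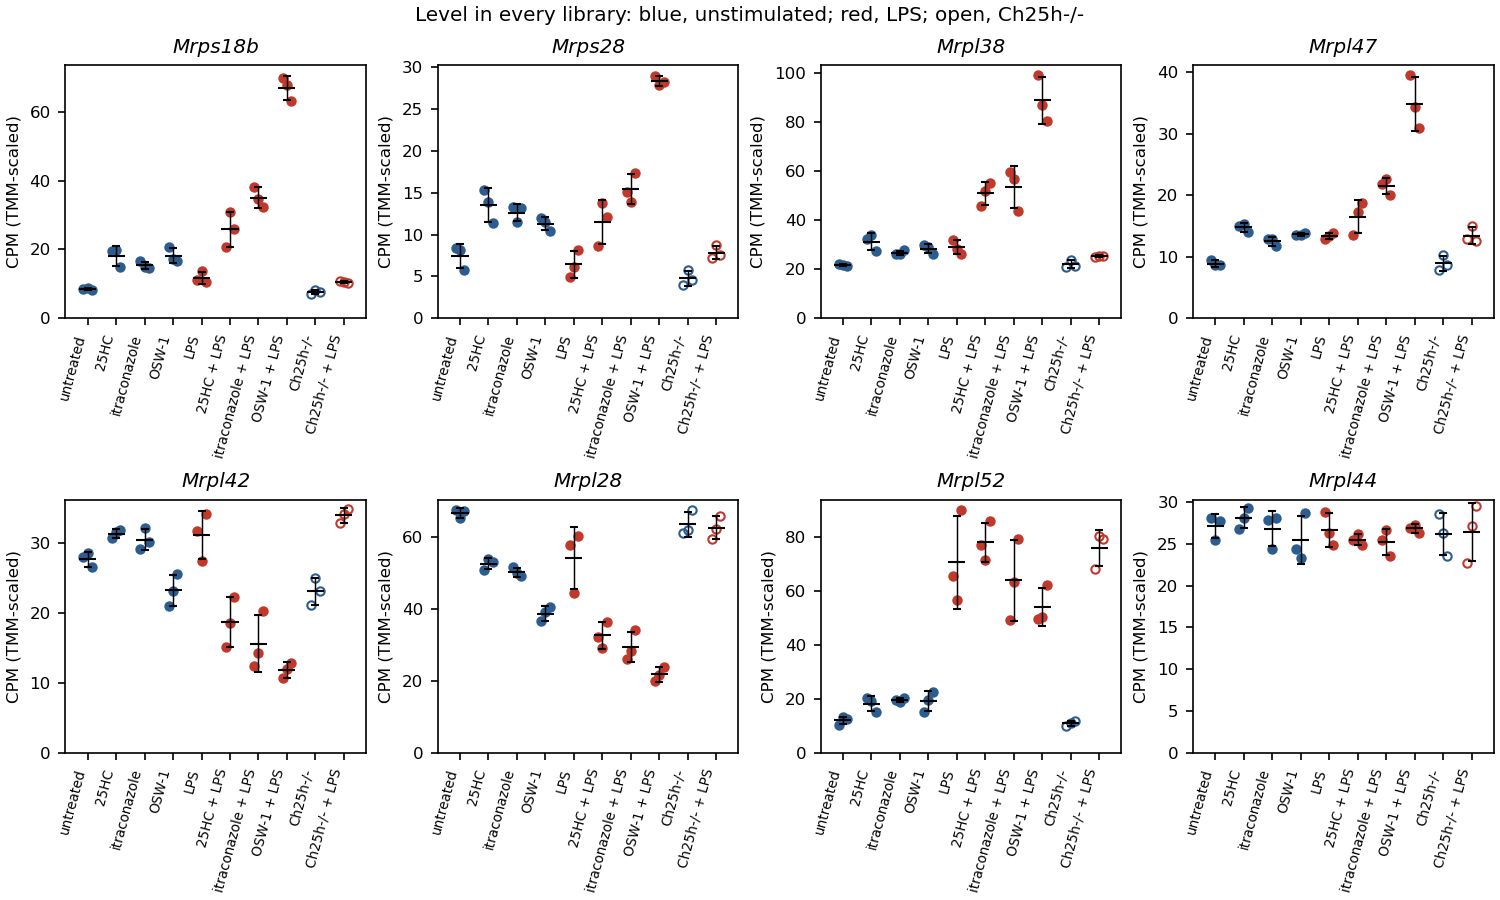
Level in TMM-scaled CPM (vertical axis, linear from 0) of 8 genes in each of the 30 libraries (points) by group (horizontal axis), with the mean and SD over 3 mice; blue is unstimulated, red is LPS and open points are Ch25h-/-. Mrps18b reaches 63.1 to 69.8 CPM with OSW-1 plus LPS, Mrpl42 falls to 10.6 to 12.8 there, Mrpl52 separates unstimulated from LPS libraries, and Mrpl44 stays between 22.7 and 29.6 CPM in every library.

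The response to LPS itself was compared between pretreated and untreated cells as a difference of log2 fold changes over the 4 groups involved. With OSW-1 28 members responded more positively and 10 more negatively than in untreated cells, where 23.4% and 28.3% of all tested genes did. With itraconazole it was 5 and 8 (12.2% and 14.2%), and with 25HC 1 and 3 (5.34% and 6.95%), or 1 and 5 with mice as a block. These 3 differences share the untreated groups. For OSW-1 Mrps28 was at 1.54 ± 0.25 (adjusted p = 1.67e-05), Mrps18b at 1.41 ± 0.18 and Mrpl38 at 1.24 ± 0.15, while Mrpl42 was at -1.14 ± 0.19, Mrpl52 at -1.06 ± 0.24 and Mrpl30 at -0.78 ± 0.14. Mrpl42 was also at -0.92 ± 0.19 with 25HC and -1.13 ± 0.19 with itraconazole. Scaled by library totals the splits were 36 and 5 for OSW-1 and 6 and 5 for itraconazole. Of all tested genes 4199 were then more positive and 2898 more negative with OSW-1, and 1804 and 1542 with itraconazole. Leaving out single libraries gave 3 to 8 more positive and 5 to 15 more negative with itraconazole and 0 to 2 and 3 to 7 with 25HC. Untreated LPS mouse 3 (8 and 5) and itraconazole plus LPS mouse 1 (5 more negative), mouse 2 (5) and mouse 3 (15) moved the itraconazole counts most, as did unstimulated itraconazole mouse 2 (3 more positive). Without untreated LPS mouse 2, 5 were more negative with 25HC, and without 25HC plus LPS mouse 3, 7 were.

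Within pretreated cells LPS raised 17 and lowered 23 members after 25HC (30.6% and 33.3% of all tested genes, 63.9% in either direction), raised 22 and lowered 25 after itraconazole (33.4% and 33.6%, 67% in either direction), and raised 40 and lowered 14 after OSW-1 (34.8% and 36.6%, 71.3% in either direction). Unstimulated and LPS libraries did not overlap for 45, 47 and 62 members, where the shares of all tested genes were 68.5%, 70.8% and 76.2%. Medians were -0.13, 0.07 and 0.26 for members and -0.04, -0.02 and -0.03 for all tested genes. By library totals the splits were 4 and 48, 8 and 37, and 28 and 21. Of all tested genes 2404 were then higher and 6572 lower after 25HC, 2784 and 6181 after itraconazole, and 3712 and 5500 after OSW-1. After itraconazole the count of lower members was 15 without itraconazole plus LPS mouse 1. Mrps18b rose with LPS by 0.52 ± 0.13 after 25HC, 1.19 ± 0.13 after itraconazole and 1.88 ± 0.13 after OSW-1. Mrpl33 was lower by -0.99 ± 0.14 after 25HC and -1.0 ± 0.14 after itraconazole.

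No member was called different between Ch25h-/- and wild-type cells by edgeR at an adjusted p under 0.05, either unstimulated (0 higher and 0 lower, where 0% and 0.00759% of all tested genes were) or with LPS (0 and 0, where 0.0152% and 0.213% were). Groups did not overlap for 14 members unstimulated and 4 with LPS, where 21% and 9.69% of all tested genes did not. The members' medians were -0.086 unstimulated and -0.013 with LPS, and those of all tested genes -0.001 and -0.014. DESeq2 also called 0 in each direction. At an unadjusted p under 0.05 there were 1 higher and 3 lower unstimulated and 1 higher and 8 lower with LPS. Without wild-type LPS mouse 3 the counts with LPS were 4 and 10, and without untreated wild-type mouse 3 there was 1 lower member unstimulated. The difference in LPS response between the genotypes gave 0 and 0 calls (0% of all tested genes), with 3 and 2 at an unadjusted p under 0.05 and 0 by DESeq2, and without wild-type LPS mouse 3 it gave 2 and 1. At an unadjusted p, or with a library left out, the shares of all tested genes were not counted. No result about members is drawn from those counts.

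Several members lie beside genes with changes of their own. For Mrps18b the annotated start is 45 bases from that of Ppp1r10, which encodes a regulatory subunit of protein phosphatase and runs the other way (chr17:35916434-35932283), and the exons of both do not overlap. Ppp1r10 was at 1.09 ± 0.17 with 25HC, 1.23 ± 0.17 with itraconazole and 2.06 ± 0.18 with OSW-1 in LPS-treated cells. It was at 0.53 ± 0.17 with OSW-1 at rest, was not called with 25HC or itraconazole at rest (0.19 ± 0.17 and 0.18 ± 0.17), and fell by 0.63 ± 0.17 with LPS where Mrps18b rose by 0.46 ± 0.13. By TMM scaling the pair moved the same way with compounds plus LPS and in opposite directions with LPS alone. Of the members 26 have a coding gene starting head to head within 1000 bases.

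Mrpl28 starts 246 bases after the end of Tmem8, a membrane protein gene on the same strand (chr17:26113299-26123254). Tmem8 libraries had 173, 160 and 214 CPM untreated at rest and 44.1, 47.6 and 51.2 with OSW-1, and with LPS 129, 130 and 248 CPM alone and 17.8, 18.0 and 13.5 with OSW-1. All OSW-1 libraries lay below their controls. Fold changes of Tmem8 on the log2 scale were -1.32 ± 0.22, -1.37 ± 0.22 and -1.93 ± 0.23 at rest and -2.30 ± 0.23, -2.15 ± 0.23 and -3.36 ± 0.25 with LPS, each lower than that of Mrpl28. Whether reads that run past the end of Tmem8 are counted for Mrpl28 was not tested.

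Mrpl52 ends 1856 bases before Mmp14, a membrane-bound metalloproteinase gene on the same strand (chr14:54431612-54445364). Mmp14 rose from 0.236, 0.261 and 1.36 CPM to 325, 366 and 446 CPM with LPS in wild-type cells, 9.35 ± 0.49 on the log2 scale, and was lower with OSW-1 plus LPS than with LPS alone (-1.74 ± 0.32), as Mrpl52 was. Mmp14 was not called with 25HC or itraconazole plus LPS (-0.21 ± 0.31 and 0.03 ± 0.31). Slc7a7, an amino acid transporter gene that starts 9129 bases on the other side of Mrpl52, was at 1.47 ± 0.22 with LPS. Over LPS alone Slc7a7 was at -1.27 ± 0.22 with 25HC, -1.36 ± 0.22 with itraconazole and -2.25 ± 0.23 with OSW-1. For Mrps28, the neighbour Tpd52 on the same strand 1675 bases upstream went the other way, at -0.86 ± 0.10 with OSW-1 plus LPS. No cause linking neighbours was tested.

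**Figure D4:**
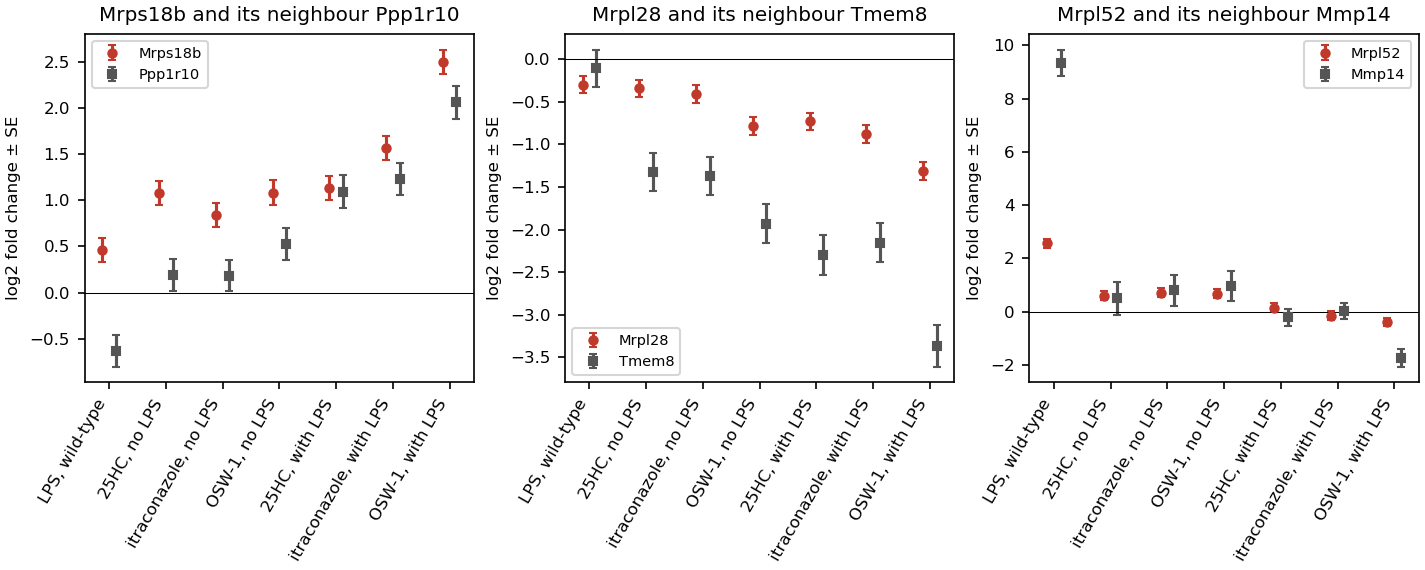
Log2 fold change with SE (vertical axis) of Mrps18b, Mrpl28 and Mrpl52 (red circles) and of a neighbouring gene (grey squares) in 7 comparisons (horizontal axis). Ppp1r10 follows Mrps18b where LPS and a compound are combined and is at -0.63 with LPS alone, Tmem8 lies below Mrpl28 in the compound comparisons, and Mmp14 reaches 9.35 with LPS.

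Overlapping genes limit some members. By exonic bases 22 share some with a gene on the opposite strand and 4 with one on the same strand, and 75 of 76 had a gene model in GENCODE vM21. Mrps34 shares 63.4% with Mapk8ip3 on the opposite strand and 37.0% with Nme3 on the same strand, and was called in Ch25h-/- cells with LPS (0.32 ± 0.13). Mrpl46 and Mrps11 overlap each other at their starts and were at 0.40 and -0.34 with OSW-1 plus LPS.

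The level summed over members was 2003 ± 49.6 CPM (SD, n = 3) in untreated wild-type cells at rest, 2174 ± 85.9 with LPS and 2544 ± 3.52 with OSW-1 plus LPS. As a share of all counts, without TMM, the sums were 0.216%, 0.185% and 0.259%, so the sum with LPS alone was higher than at rest on one scale and lower on the other, while OSW-1 plus LPS was highest on both. The ratio of the Mrpl sum to the Mrps sum was 2.09 ± 0.01 at rest and 2.48 ± 0.12 with LPS in wild-type cells, and 2.08 ± 0.01 and 2.40 ± 0.06 in Ch25h-/- cells. A ratio does not depend on the scaling. Without Mrpl52 and Mrpl45 it was 2.00 and 2.23 in wild-type and 1.98 and 2.15 in Ch25h-/- cells. With LPS it was 2.37 ± 0.08 after 25HC, 2.29 ± 0.03 after itraconazole and 2.08 ± 0.03 after OSW-1, and without Mrpl52 and Mrpl45 it was 2.10, 2.05 and 1.91. The OSW-1 value lay near the unstimulated one with these genes and below it without them. The proteins of Mrps18a and Mrps30 are known to sit in the large subunit, so symbols give the subunit only in part.

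**Figure D5:**
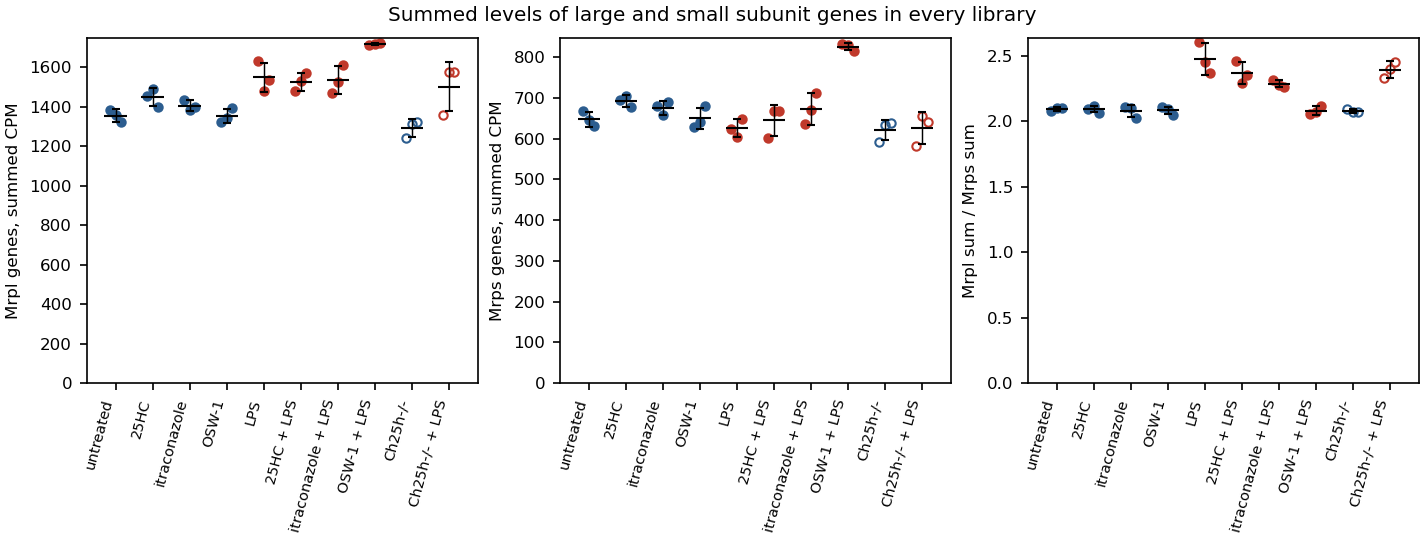
Summed CPM of the 47 Mrpl genes, summed CPM of the 29 Mrps genes and the ratio of both (vertical axes, from 0) in each library (points) by group (horizontal axis), with mean and SD over 3 mice; blue is unstimulated, red is LPS and open points are Ch25h-/-. The Mrps sum is highest with OSW-1 plus LPS, at 826 CPM on average, and the ratio is raised with LPS alone (2.48) and not with OSW-1 plus LPS (2.08).

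With OSW-1 plus LPS 21 of the 47 Mrpl genes were higher and 10 lower (median 0.20), and 14 of the 29 Mrps genes higher and 7 lower (median 0.24), beside 34.3% higher, 37.1% lower and a median of -0.06 for all tested genes. By position in the particle the 8 proteins of the peptide exit were 5 higher and 0 lower with LPS in wild-type cells (median 0.43, where all tested genes had 30.8% higher, 30.1% lower and a median of -0.01) and 3 higher and 0 lower with OSW-1 plus LPS (median 0.02). Of the 5 of the central protuberance, 4 were higher and 1 lower with OSW-1 plus LPS (median 0.40), and of the 4 of the stalk, which binds translation factors, 2 were higher and 0 lower (median 0.31). By origin, 11 of 29 large subunit genes with a bacterial counterpart were higher and 7 lower with OSW-1 plus LPS (median 0.08), and 11 of 19 specific to mitochondria higher and 3 lower (median 0.40). For the small subunit the counts were 7 and 4 of 16 (median 0.13) and 5 and 2 of 10 (median 0.34). The latter 10 include Mrps18b, whose protein is a relative of a bacterial one, so this split gives origin only in part. Among stalk members Mrpl12, which also binds the mitochondrial RNA polymerase, was called higher with itraconazole at rest (0.33 ± 0.12) and in Ch25h-/- cells with LPS (0.35 ± 0.13). Among further members, Mrps12 was at 0.54 ± 0.12, Mrps27 at 0.57 ± 0.11, Mrpl3 at 0.24 ± 0.08, Mrpl11 at 0.24 ± 0.12 and Mrpl44 at 0.01 ± 0.10 with OSW-1 plus LPS, and the last 2 were not called.

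Other genes that build or serve the mitochondrial ribosome were read in the same fit. With OSW-1 plus LPS 34.3% of all tested genes were higher and 37.1% lower, with a median of -0.06. With OSW-1 plus LPS, 4 of 6 ribosomal proteins that the symbol rule misses were higher and 0 lower, with a median of 0.48, among them Ptcd3 at 0.95 ± 0.14 and Gadd45gip1 at 1.04 ± 0.16, while Dap3 and Aurkaip1 were not called. Of 28 assembly and rRNA modification genes 17 were higher and 5 lower (median 0.48). Wbscr16, a large subunit assembly factor, was at 2.25 ± 0.14 and Trmt2b, an RNA methyltransferase, at -1.59 ± 0.10. Of 25 transcription and RNA processing genes 18 were higher and 3 lower (median 0.74), with Tbrg4 at 1.77 ± 0.15, the mitochondrial RNA polymerase Polrmt at 1.07 ± 0.14 and Tfam, which packages mitochondrial DNA, at 0.33 ± 0.08. Hsd17b10, a subunit of the mitochondrial RNase P, was at -2.49 ± 0.19. Of 20 mitochondrial tRNA synthetase genes 9 were higher and 3 lower (median 0.16), with Ears2 at 1.94 ± 0.24, and of 16 translation factors 4 and 4 (median 0.13).

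Of 14 tested regulators of mitochondrial biogenesis 11 were higher and 2 lower with OSW-1 plus LPS (median 0.54), against 34.3%, 37.1% and a median of -0.06 for all tested genes. Myc, a growth-promoting transcription factor, was at 3.61 ± 0.31 and Pprc1, a coactivator of mitochondrial genes, at 2.04 ± 0.19, while the related coactivator Ppargc1b was at -2.68 ± 0.26. Gabpa, of the ETS family, was at 0.93 ± 0.08 and Nrf1 at 0.32 ± 0.12. Without LPS, OSW-1 raised Myc by 2.47 ± 0.26 and Pprc1 by 1.52 ± 0.19. LPS alone gave -2.46 ± 0.31 for Myc and 1.44 ± 0.23 for Ppargc1b in wild-type cells.

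The 13 mRNAs that the mitochondrial genome encodes, the templates of this ribosome, were mostly lower with LPS. In wild-type cells 0 were higher and 11 lower with a median of -0.72, where 30.8% of all tested genes were higher and 30.1% lower with a median of -0.01. In Ch25h-/- cells it was 0 and 11 with a median of -0.64, against 28%, 29.2% and -0.02. Among them mt-Nd3 was at -1.36 ± 0.26 and mt-Cytb at -1.08 ± 0.16 in wild-type cells, while mt-Co1 was at 0.11 ± 0.10 and not called. With OSW-1 plus LPS against LPS alone 0 were higher and 4 lower (34.3% and 37.1% of all tested genes), and the median was -0.06 for both.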

How the data were processed

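Poly(A) RNA of 30 libraries was sequenced. The authors deposited a table of raw read counts per gene; per the submitters' processing notes the tools were FastQC 0.11.9, GSNAP, featureCounts of Subread 1.5.2 and edgeR 3.26.8. The strand setting of the counting is not given in the sources used here. Why counts are all even in 20 libraries is not stated, and the main fit used them as deposited. With the counts of these libraries halved, all 100 named values kept their call. Halving does not separate this difference from the treatment or the genotype.

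Counts were tested with edgeR 4.0.16 (quasi-likelihood F test, R 4.3.3) on 13173 genes that passed filterByExpr (minimum count 10), with TMM factors and 1 fit over all 10 groups, and p-values were adjusted by Benjamini-Hochberg over all of them. Tested genes held at least 99.98% of each library's counts. CPM values are TMM-scaled. On counts simulated for OSW-1 with LPS (13027 genes), 61% of 100 genes changed 1.5-fold and 88% of 100 changed 2-fold were recovered, and 7 of 12827 unchanged genes were called.

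Mouse numbers in the labels name the animal, so libraries of 1 mouse are paired; same-numbered wild-type libraries had a median correlation of deviations of 0.0865 and others of -0.0441. Alternatives were the mouse as a block, DESeq2 1.42.0, its size factors, library totals, no filter and even counts halved. Others were only the groups compared and leaving out each library. Removal of a length trend was added after seeing the data.

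Members and gene lists were chosen with earlier results of these data known, and some older symbols were added to the lists later. Named genes are, among members called at an average log2 CPM of at least 2, up to 4 with the largest and 4 with the smallest log2 fold change per comparison, up to 3 and 3 per difference of LPS responses, up to 2 and 2 per related list, and a set of genes of stated roles; neighbours and the relatives of Mrps18b were named after their values were seen. Gene models are from GENCODE vM21 (75 of 76 members) and promoters from RefSeq (GRCm38.p6, 67 members).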

Additional observations from a re-analysis of the deposited data

Results flagged for a closer look

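The response to LPS differed between pretreated and untreated wild-type cells by the test of the difference itself. The up to 3 largest and 3 smallest called differences per compound, 16 in all over 9 members, are given. Values are differences of log2 fold changes ± SE, and the 3 compounds share the untreated libraries. Groups of 3 are too small for a test of outlying samples.

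Mrpl42 had a lower LPS response after each compound: -0.92 ± 0.19 with 25HC, -1.13 ± 0.19 with itraconazole and -1.14 ± 0.19 with OSW-1. Mrpl18 was at -0.56 ± 0.13 with 25HC and -0.65 ± 0.13 with itraconazole, and Mrpl13 at -0.55 ± 0.13 with 25HC. Mrpl52 was at -0.86 ± 0.24 with itraconazole and -1.06 ± 0.24 with OSW-1, and Mrpl30 at -0.78 ± 0.14 with OSW-1.

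Mrpl9 had a higher LPS response, with 0.41 ± 0.13 after 25HC and 0.46 ± 0.13 after itraconazole. The 25HC value of Mrpl9 lost its call without any of 8 libraries, with adjusted p from 0.0679 to 0.11. Mrpl38 was at 0.59 ± 0.15 with itraconazole and 1.24 ± 0.15 with OSW-1, Mrps18b at 0.72 ± 0.18 and 1.41 ± 0.18, and Mrps28 at 1.54 ± 0.25 with OSW-1.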

How the results depend on the processing

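Over 34 counts of members, 443 of 520 recomputed counts lay within 1.5 times the reported ones, no value reversed, and 85 of 100 named values kept their call in every setting. Values below are higher, then lower, members. For each comparison with a count by library totals below, the counts of all tested genes on that scale are given with the results above. Library totals gave 4 and 38 for LPS in wild-type and 7 and 27 in Ch25h-/- cells, 2 lower with OSW-1 at rest, 29 and 8 for itraconazole with LPS, 11 lower for OSW-1 with LPS, 4 and 48 for LPS after 25HC, 8 higher for LPS after itraconazole, and 5 lower for the LPS responses with itraconazole and with OSW-1. Fitting only the groups compared gave 8 lower for LPS in wild-type cells, 4 lower for 25HC and 6 for itraconazole at rest, 5 higher for 25HC with LPS, 9 and 7 for itraconazole with LPS, 0 higher for the 25HC response and 3 and 5 for the itraconazole response. Without the low-count filter 6 were lower with OSW-1 at rest, 8 higher for 25HC with LPS, and 0 and 3 higher for the 25HC and itraconazole responses. DESeq2, and its size factors in edgeR, gave 4 lower for 25HC at rest. Removing a length trend, chosen after seeing the data, gave 13 lower for LPS in Ch25h-/- cells, 20 higher for 25HC and 5 lower for OSW-1 at rest, 11 lower for itraconazole with LPS and 9 higher for the itraconazole response. The causes were not tested.

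With the mouse as a replicate block 4 were lower for 25HC at rest and 5 for the 25HC response, and the block changed no other count by over 1.5 times and no named call. No paired analysis was possible between genotypes because their mice differ.

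Leaving out each library in turn gave these ranges of higher and lower members: LPS in wild-type 20 to 26 and 8 to 19, LPS in Ch25h-/- 17 to 32 and 4 to 7, 25HC at rest 9 to 18 and 0 to 4, itraconazole at rest 7 to 10 and 1 to 3, OSW-1 at rest 8 to 10 and 3 to 7. With LPS they were 6 to 13 and 8 to 16 for 25HC, 17 to 20 and 10 to 21 for itraconazole and 33 to 41 and 14 to 17 for OSW-1. For LPS after 25HC they were 14 to 17 and 17 to 26, after itraconazole 18 to 21 and 15 to 26, and after OSW-1 36 to 41 and 11 to 15. Ch25h-/- against wild-type gave 0 and 0 to 1 unstimulated and 0 to 4 and 0 to 10 with LPS. The responses gave 0 to 2 and 3 to 7 with 25HC, 3 to 8 and 5 to 15 with itraconazole, 23 to 29 and 9 to 12 with OSW-1, and 0 to 2 and 0 to 1 for the genotypes.

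With 3 mice a group, 61% of 1.5-fold changes were recovered in counts simulated for OSW-1 with LPS. There 12827 of 13027 genes were simulated without a change, whereas 71.4% of tested genes were called in the data. The cutoff on p therefore differs, and 61% is not the recovery in the data. Small changes can still be missed.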
